A study of Trametes cinnabarina with 17 samples.

Results

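Transcription in the white-rot fungus *Pycnoporus cinnabarinus* CIRM-BRFM 137 (Pycci 137) was compared between 2 plant substrates, wheat straw and aspen wood. All columns labelled wheat straw (3 libraries) and aspen (3 libraries) were taken, which makes 6 of the 17 libraries of the series. Each library came from mycelium of the wild-type strain after 3 days of shaken liquid culture at 1 temperature, and the study describes its cultures as independent triplicates. According to the labels both media combined 15 g/l of substrate and 2.5 g/l maltose, whereas the study's text calls each substrate the only carbon source, and this difference was not resolved. The aspen was milled to 1 mm, and the wheat straw was ground and sifted with no size in its label, so plant species and particle preparation cannot be told apart. The other groups, used here for the levels of the same genes, were pine wood (particles under 2 mm, 3 libraries), Avicel, a crystalline cellulose (2 libraries), xylan-galactomannan, a blend of hemicellulose polymers (3 libraries), each with the same maltose, and 20 g/l maltose alone (3 libraries).

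White-rot fungi break down all polymers of the plant cell wall. Cellulose is opened by cellobiohydrolases and endoglucanases together with lytic polysaccharide monooxygenases (LPMOs), and beta-glucosidases release glucose from the products. Many of these enzymes carry CBM1, a small module that binds cellulose. Lignin, a polymer of phenolic units, is attacked by oxidative enzymes such as laccases, copper enzymes that oxidize phenols. Cereal straw and hardwood differ in the makeup of their hemicelluloses and lignin, and the study used wheat straw as a model of gramineous biomass and aspen as a model of hardwood.

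Transcripts were counted for 10442 gene models, with totals from 10668073 to 14984283 reads per library on aspen and from 14818467 to 15950092 on wheat straw. On 9162 genes with enough counts, the log2 difference between libraries of the same substrate had an SD over genes of 0.201 to 0.418, and between libraries of different substrates of 0.615 to 0.754. Chi-square per degree of freedom was at least 8.52 for each pair of replicates, so none agreed within sampling noise. The first principal component of the 6 libraries held 74.3% of the variance, with the 3 wheat straw libraries on one side (25.5 to 33.1) and the 3 aspen libraries on the other (-35.6 to -25.5).

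Genes were called higher or lower with the quasi-likelihood test of edgeR. A call needed a p below 0.05 after Benjamini-Hochberg adjustment over all tested genes and a log2 fold change beyond 1 in either direction. Counts come from whole mycelium, so more cells expressing a gene and more RNA per cell cannot be told apart. The background of calls was 7.73% of tested genes, with 3.42% (313 genes) higher and 4.31% (395 genes) lower on wheat straw than on aspen. The median log2 fold change was 1.30 for the higher genes and -1.48 for the lower genes, compared with -0.01 for all tested genes. Changes above 4-fold were seen for 55 genes higher and 104 genes lower on wheat straw, and above 8-fold for 15 and 30. The 3 wheat straw and 3 aspen values did not overlap for 311 of the 313 higher genes and 390 of the 395 lower genes, whereas 52.0% of all tested genes had values that did not overlap. The mean level on the substrate where the gene was higher had a median of 646 normalized counts for the genes higher on wheat straw and 1007 for those lower. No gene model could be matched to the RefSeq table given, so protein IDs stand for the genes, and predicted functions come from the study's annotation of 176 genes. The study chose these genes on the same cultures. Most came from clusters highly transcribed on aspen, pine or wheat straw but not on maltose or Avicel, and were up-regulated over maltose. Their lower levels on maltose and Avicel are therefore partly fixed by this choice. Others came from the clusters with the most proteins detected in the secretome. The study's tables marked 25 genes as highly transcribed on aspen alone of the plant substrates and none on wheat straw alone. The 16 annotated genes called higher and the 27 called lower on wheat straw therefore describe that selection and say nothing of the whole genome.

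**Figure D1:**
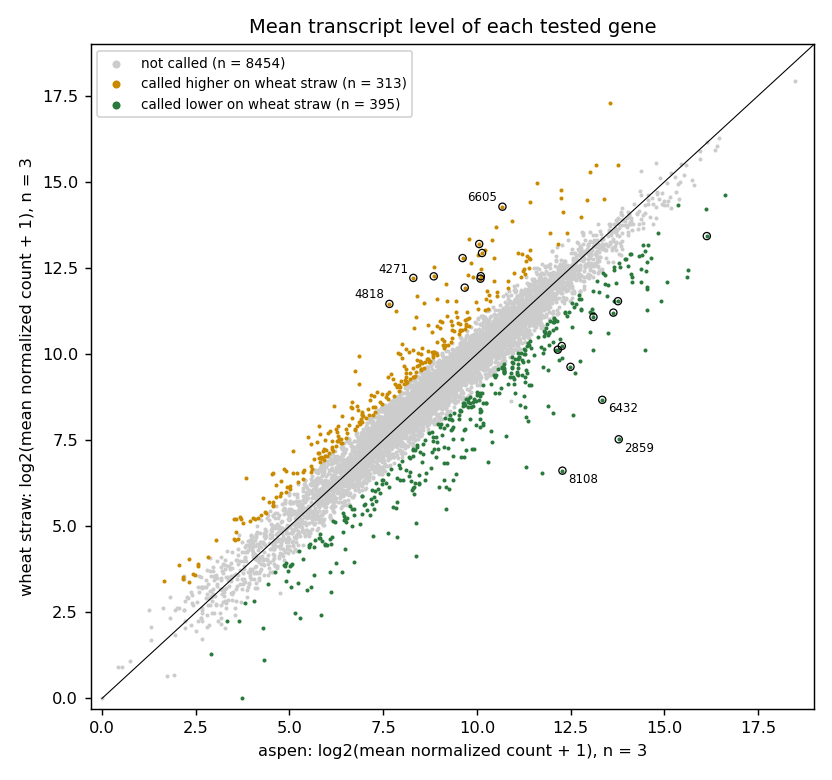
Mean transcript level of the 9162 tested genes on aspen (x axis) and wheat straw (y axis), as log2(mean normalized count + 1) of 3 libraries each. Orange points are the 313 genes called higher and green points the 395 called lower on wheat straw, the line marks equal levels, circles mark the 20 genes given in full, and the 3 with the largest change in each direction carry their protein ID.

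Of the 16 annotated genes higher on wheat straw, 8 were members of the cellulose list, which holds predicted cellulose-active enzymes and other genes of the same cluster. A GH7 enzyme (protein ID 5845), of the family of cellobiohydrolases and endoglucanases, had 4889, 4267 and 5501 normalized counts on wheat straw and 379, 619.7 and 381 on aspen. The lowest wheat straw value was far above the highest aspen value. Its log2 fold change was 3.40 ± 0.33 (SE, edgeR's adjusted p = 5.14e-07), a 10.6-fold difference. On Avicel both libraries were far higher again (152183 and 181396), while pine (549 to 684) was close to aspen and maltose was lower (205 to 250.4).

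A GH131-CBM1 enzyme (1365), of a family of beta-glucanases, had 7559.5, 8992 and 11553 normalized counts on wheat straw and 799, 1456 and 945 on aspen, without overlap. The log2 fold change was 3.13 ± 0.29 (SE, edgeR's adjusted p = 3.59e-07). Its 2 Avicel libraries held 84459.8 and 70848, its pine libraries 929 to 1130.4 and its maltose libraries 69.5 to 86.6.

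Both CBM1-GH5_5 genes, predicted endoglucanases that cut within cellulose chains, were highest on Avicel and next highest on wheat straw. Protein ID 1929 had 5027, 8329.8 and 10082 normalized counts on wheat straw and 831, 1680.5 and 860.4 on aspen, a log2 fold change of 2.79 ± 0.32 (SE, edgeR's adjusted p = 3.42e-06). Protein ID 8616 had 4614, 4545 and 5549 on wheat straw and 929.8, 1284 and 1082 on aspen, a log2 fold change of 2.15 ± 0.22 (SE, edgeR's adjusted p = 8.54e-07). Neither gene had overlapping values on wheat straw and aspen, and aspen replicate 2 was the highest aspen library for both. Against Avicel wheat straw was lower by a log2 fold change of -2.57 for 1929 and -4.52 for 8616, and aspen by -5.37 and -6.68, and all of these differences were called (background of genes called lower than on Avicel 7.15% for wheat straw and 7.39% for aspen).

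The AA9-CBM1 gene (5579) encodes a predicted LPMO, which cleaves crystalline cellulose by oxidation. It had 3319, 3522 and 4832 normalized counts on wheat straw, 649, 1030.4 and 768 on aspen, and 30616 and 23899.8 on Avicel. The log2 fold change between wheat straw and aspen was 2.25 ± 0.19 (SE, edgeR's adjusted p = 1.06e-07). A GH1 gene (4378), of a family of beta-glucosidases, had 7851 ± 886 normalized counts on wheat straw, compared with 2173 ± 180.5 on aspen (SD, n = 3 each). The log2 fold change was 1.85. Its level was 67753 ± 5367 on Avicel (SD, n = 2).

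The cellulose list also held a pair of genes with no cell wall function in their annotation. A predicted mutarotase (3419), an enzyme that interconverts the ring forms of sugars, had 6284, 6693 and 8185 normalized counts on wheat straw and 744, 993 and 617 on aspen, a log2 fold change of 3.16 ± 0.21 (SE, edgeR's adjusted p = 5.76e-09). For the predicted carboxypeptidase C (6605), a serine peptidase, the log2 fold change was above that of any other annotated gene, at 3.59 ± 0.29 (SE, edgeR's adjusted p = 5.62e-08). It had 14320.0, 19670.1 and 25519 normalized counts on wheat straw and 1520.4, 2208 and 1188 on aspen. The Avicel libraries held 30707 and 21903 for the mutarotase, above all wheat straw values, and 13409 and 8600.3 for the carboxypeptidase, below all wheat straw values. Wheat straw and Avicel were not called different for the carboxypeptidase (log2 fold change 0.85), unlike the mutarotase (-1.90).

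The genes above are 8 of the 9 members of the cellulose list. The median log2 fold change was 2.79 over the 9 members and -0.01 over all tested genes. The study formed this cluster from the transcript levels of these libraries and chose it for its secreted proteins, so the list is not independent evidence of a direction. Its ninth member, 6394, which has no predicted function, had 8169 ± 2048 normalized counts on wheat straw and 4089 ± 1025 on aspen (SD, n = 3 each). Its log2 fold change was 0.99 (95% interval 0.43 to 1.56), just under the threshold.

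**Figure D2:**
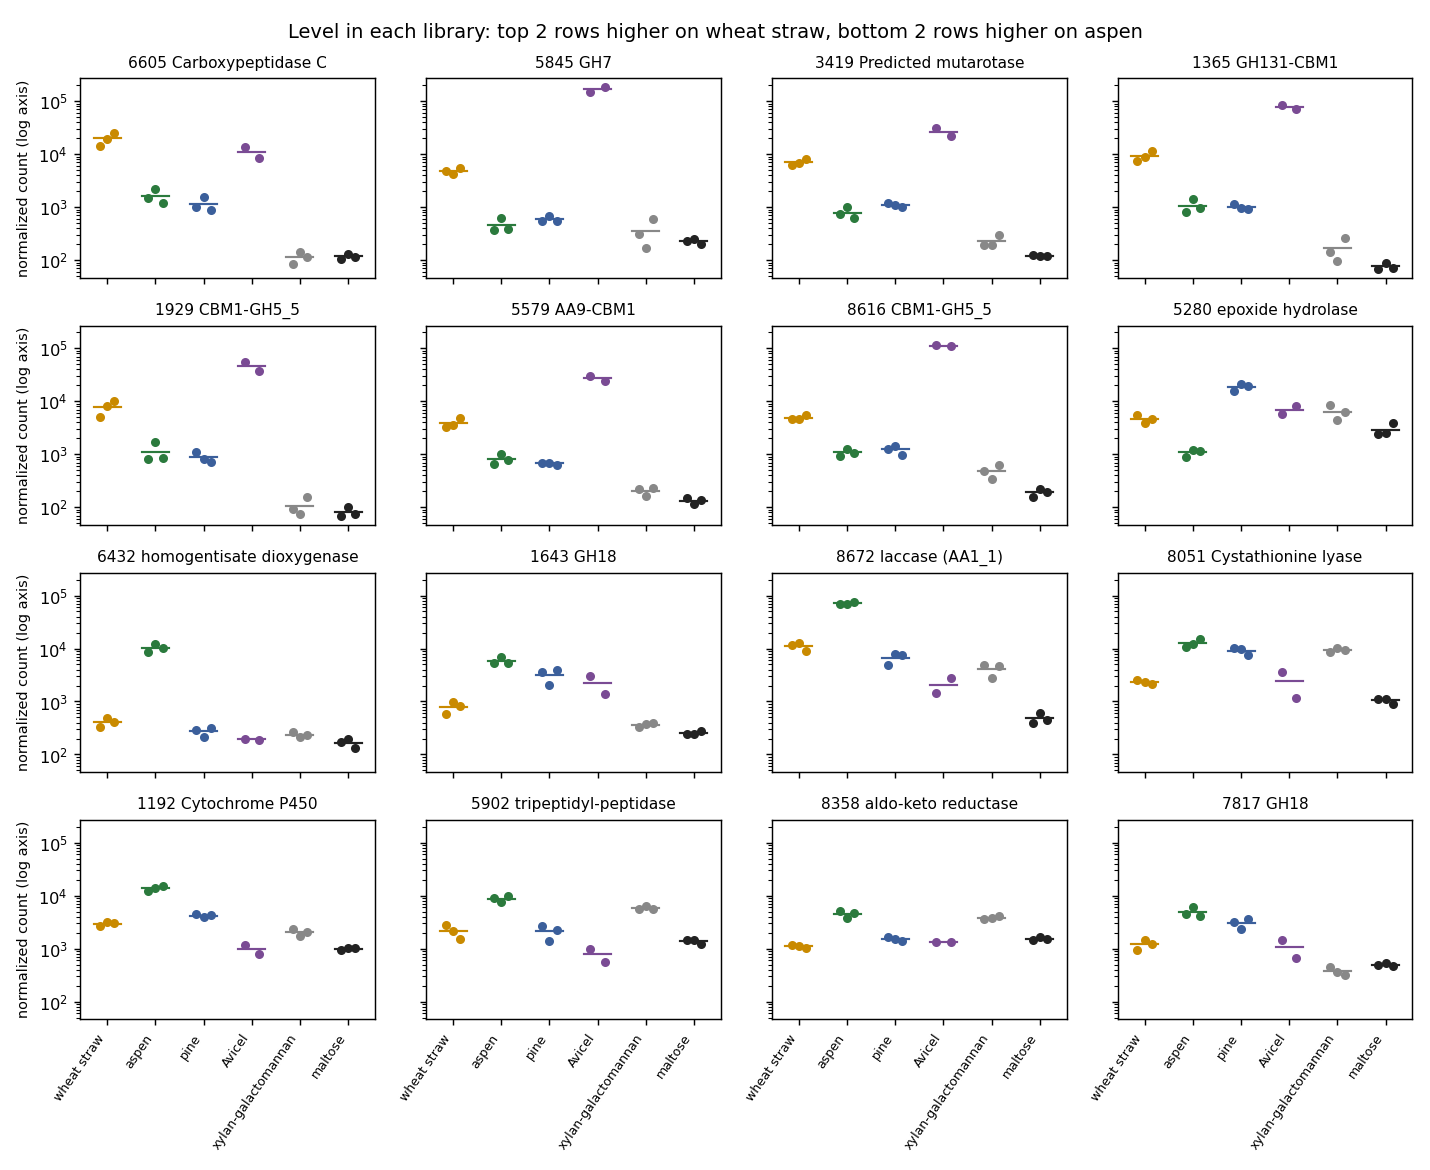
Normalized count (log axis) in each of the 17 libraries for the 8 annotated genes with the largest change in each direction. Points are libraries and bars are means of 3 libraries (2 for Avicel). In the upper rows the 3 wheat straw points lie above the 3 aspen points, and 6 of the 8 genes are highest on Avicel, while 6605 is highest on wheat straw and 5280 on pine. In the lower rows aspen is highest for all 8 genes by its mean. The study had marked 6432, 1643, 5902, 8358 and 7817 as highly transcribed on aspen alone of the plant substrates, which partly fixed this.

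Other annotated genes higher on wheat straw were not highest on Avicel. The study had chosen these genes from clusters not highly transcribed on Avicel, which partly fixed this. A gene of the epoxide hydrolase family (5280), enzymes that open epoxide rings with water, had 5564, 3847 and 4576 normalized counts on wheat straw and 896, 1214 and 1165 on aspen, a log2 fold change of 2.09 ± 0.25 (SE, edgeR's adjusted p = 5.66e-06). Aspen was the lowest of all 6 substrates for this gene. The next lowest was maltose (2406 to 3899), and pine was the highest (15348 to 21469). The Avicel libraries (5700.5 and 8233) were above all wheat straw libraries, and wheat straw and Avicel were not called different (log2 fold change -0.58).

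An expansin-like gene (10401), from a group of proteins that loosen plant cell walls without cutting them, had 37882, 53317 and 45750.1 normalized counts on wheat straw and 15768, 13681 and 12337 on aspen. Its log2 fold change was 1.71 ± 0.22 (SE, edgeR's adjusted p = 1.3e-05). Pine (22275 to 37467) lay between the 2 substrates, and Avicel (1884 and 1975) and maltose (606 to 818) were far lower. A GH3 gene (4566), of a family that holds beta-glucosidases and beta-xylosidases, had 7338 ± 890.0 on wheat straw and 2559.8 ± 465 on aspen, while pine was higher at 11074 ± 739 (SD, n = 3 each). Wheat straw and aspen differed by a log2 fold change of 1.52. Its level was 737 ± 285 on Avicel (SD, n = 2), where the GH1 gene was highest.

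The laccases, both annotated as AA1_1, went in opposite directions. Protein ID 3446 had 20053, 16955 and 16144 normalized counts on wheat straw and 5301, 4885 and 4758 on aspen, a log2 fold change of 1.83 ± 0.16 (SE, edgeR's adjusted p = 1.42e-07). Protein ID 8672 had 11444, 12471 and 9039 on wheat straw and 70644, 68051 and 76382 on aspen, a log2 fold change of -2.71 ± 0.27 (SE, edgeR's adjusted p = 8.54e-07). Neither gene had overlapping values. Counts are not adjusted for gene length, so levels of different genes were not compared with each other. Each laccase was highest on the substrate where it was called higher, with pine at 2676 ± 315 for 3446 and 6758 ± 1615 for 8672 (SD, n = 3 each).

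The remaining annotated genes called higher on wheat straw were a short-chain reductase (104, log2 fold change 1.56), a gene given both a chitinase and a glucoamylase code (9620, 1.54), 8079 (16268 ± 2082 normalized counts on wheat straw and 7029 ± 2007 on aspen, SD, n = 3 each), and a GH37 trehalase (6931, 1.07), which splits the storage sugar trehalose. The reductase, 9620 and 8079 had means of at most 918 normalized counts on Avicel, compared with 11664, 22901 and 16268 on wheat straw. The trehalase was not called without aspen replicate 3 (log2 fold change 0.98). The 2 unannotated genes with the largest change were far higher on wheat straw than on any other substrate. Protein ID 4271 had 3672, 6988 and 3536 normalized counts on wheat straw and 389, 261 and 294 on aspen, a log2 fold change of 3.90 ± 0.28 (SE, edgeR's adjusted p = 1.61e-08). Protein ID 4818 had 2308, 3068 and 3038 on wheat straw and 134, 246 and 227 on aspen, a log2 fold change of 3.79 ± 0.21 (SE, edgeR's adjusted p = 8.7e-10). For both, the highest library of the other 4 substrates was a pine library, at 599 and 330.4.

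On aspen, the annotated gene with the largest difference was a predicted homogentisate dioxygenase (6432), which opens the aromatic ring in the breakdown of tyrosine and phenylalanine. It had 326, 478 and 414 normalized counts on wheat straw and 8689, 12417 and 10043 on aspen. Its log2 fold change was -4.68 ± 0.20 (SE, edgeR's adjusted p = 2.55e-11), which is 25.6-fold lower on wheat straw. The other 4 substrates stayed between 131 and 318 in each library, so that the 3 aspen libraries stood alone. The study had marked this gene as highly transcribed on aspen alone of the plant substrates, so its selection partly fixed this pattern. A predicted phenylalanine ammonia-lyase (350), the enzyme that removes ammonia from phenylalanine to give cinnamate, was also lower on wheat straw, with 688, 2117 and 2203 normalized counts compared with 4153, 5307 and 2967 on aspen. Its log2 fold change was -1.31 ± 0.41 (SE, edgeR's adjusted p = 0.0227), and the call was lost without wheat straw replicate 1 (-0.94) and without aspen replicate 2 (-1.10).

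Genes of the GH18 family, which holds the chitinases that cut chitin of the fungal cell wall, were higher on aspen for all 3 genes with that family annotation. The study had marked 1643 and 7817 as highly transcribed on aspen alone of the plant substrates, which largely fixed their direction. Protein ID 1643 had 571, 979 and 819 normalized counts on wheat straw and 5250.0, 6783 and 5270.5 on aspen, a log2 fold change of -2.87 ± 0.28 (SE, edgeR's adjusted p = 5.44e-07). Protein ID 7817 had 937, 1444 and 1225 on wheat straw and 4439.7, 6231 and 4065 on aspen, a log2 fold change of -2.03 ± 0.25 (SE, edgeR's adjusted p = 7.46e-06). The third, 2012, changed by -1.03 and was not called without wheat straw replicate 1 (-0.90) or without aspen replicate 2 (-0.91). Pine lay between wheat straw and aspen in mean level for all 3 (3188, 3044 and 9352), and maltose was below all of these (256, 495 and 2432).

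Among the other annotated genes lower on wheat straw were cytochrome P450s and reductase-type genes. A cytochrome P450 (1192), a heme enzyme that inserts oxygen into small molecules, had 2719, 3136 and 3033 normalized counts on wheat straw and 12363, 14075 and 15187 on aspen, a log2 fold change of -2.23 ± 0.16 (SE, edgeR's adjusted p = 1.25e-08). An aldo-keto reductase (8358), of a family that reduces aldehydes and ketones, had 1187, 1119.6 and 1038 on wheat straw and 5174, 3816 and 4689 on aspen, a log2 fold change of -2.04 ± 0.13 (SE, edgeR's adjusted p = 4.45e-09). The P450 gene was clearly highest on aspen, with pine next at 4206 ± 240.5 (SD, n = 3), while the reductase was nearly as high on xylan-galactomannan (3697 to 4120.4) as on aspen. A further P450 (5611, -1.60) and a quinone reductase-type gene (6014, -1.06) were called lower, the latter not without wheat straw replicate 1 (-0.98). The gene 5611 was highest on pine, with a mean of 5544 normalized counts compared with 2160 on aspen. The study had marked 5611 as highly transcribed on pine alone of the plant substrates, so its selection partly fixed this. For 6014 the mean on Avicel (6013) was about that on aspen (5971). The study had marked 8358 and 6014 as highly transcribed on aspen alone of the plant substrates, which largely fixed their direction.

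A gene of the cystathionine lyase and synthase group (8051), enzymes of sulfur amino acid metabolism, had 2541, 2343 and 2175 normalized counts on wheat straw and 10671, 12424 and 15132 on aspen. Its log2 fold change was -2.44 ± 0.28 (SE, edgeR's adjusted p = 3.45e-06). Pine (7475 to 10024) and xylan-galactomannan (8530.3 to 10003) were nearer to aspen, while Avicel (3588 and 1185) was not called different from wheat straw (log2 fold change -0.02) and maltose was lower (892 to 1137). A predicted tripeptidyl-peptidase (5902), which takes tripeptides off the end of proteins, had 2774, 2161 and 1529 on wheat straw and 8896, 7552 and 10014 on aspen, a log2 fold change of -2.04 ± 0.25 (SE, edgeR's adjusted p = 7.57e-06). For this gene xylan-galactomannan (5549 to 6271) was nearer to aspen and pine (1396 to 2696) to wheat straw. The study had marked 5902 as highly transcribed on aspen alone of the plant substrates, so its selection partly fixed the pattern over these substrates.

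In all, 20 of the 27 annotated genes called lower had a predicted function or secretion, and those not yet named changed by -1.99 to -1.02. They were a phosphatidylserine decarboxylase-type gene (2642, -1.99), a cation-transporting ATPase (6077, -1.77), a predicted lipase with a signal peptide (3982, -1.46), the inorganic phosphate transporters 1924 (-1.27) and 56 (-1.12), 5263 (-1.86) and 7593 (-1.19), both with a signal peptide and found in the secretome, and 10135 (-1.02). The last was not called without wheat straw replicate 1 (-0.91), without aspen replicate 2 (-0.97) or with upper-quartile scaling (-0.999). Of these genes 2642, 6077 and 10135 carry the study's mark for aspen alone, which largely fixed their direction. The secreted protein gene 5263 had 4112, 8601 and 8504 normalized counts on wheat straw and 22869.9, 27365 and 26273 on aspen, and its pine libraries lay between (10093 to 15893).

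The 2 unannotated genes with the largest fall had the largest differences of all named genes. Protein ID 2859 had 236, 146 and 167 normalized counts on wheat straw and 13328, 15046 and 13853 on aspen, a log2 fold change of -6.27 ± 0.22 (SE, edgeR's adjusted p = 2.55e-12). Protein ID 8108 had 124, 72.1 and 94.3 on wheat straw and 5911, 4466 and 4537 on aspen, a log2 fold change of -5.68 ± 0.51 (SE, edgeR's adjusted p = 1.97e-07). Wheat straw was the lowest of the 6 substrates for both. Aspen was highest for 2859, with maltose next (6162 to 6889), while the Avicel libraries of 8108 (6354 and 6701) were above its aspen libraries.

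**Figure D3:**
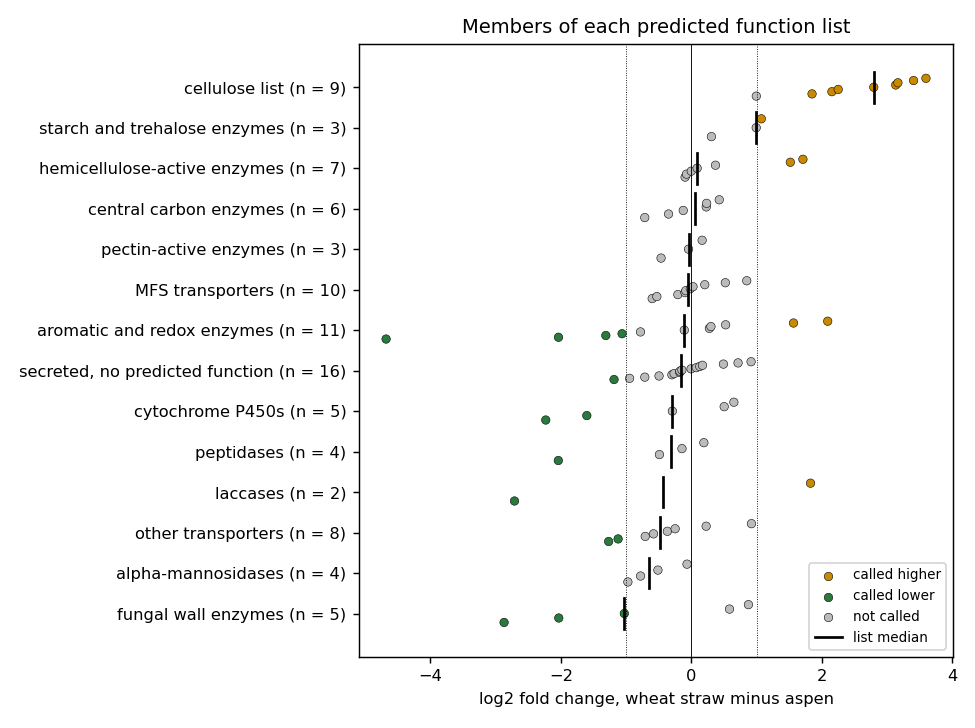
Log2 fold change of wheat straw against aspen (x axis) for the members of 14 lists of predicted function (rows, with the number of members). Each point is a gene, set apart vertically for legibility, orange if called higher, green if called lower and grey if not called, and vertical bars are list medians. The cellulose list lies to the right with a median of 2.79 and the fungal wall list to the left with -1.03. As in all lists, the study had chosen the genes on these same cultures.

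The annotated genes were grouped by predicted function, and no group was tested as a whole. The counts stand beside a background of 3.42% of tested genes higher and 4.31% lower. All lists come from the 176 annotated genes, of which 16 were higher and 27 lower, a larger share in each direction. Of 5 fungal wall enzymes the 3 GH18 genes were lower and none was higher on wheat straw (median log2 fold change -1.03). For the GH18 genes 1643 and 7817 the study's mark for aspen alone largely fixed this direction. The 2 exo-type beta-glucanases of that list had positive values, 0.87 for 7620 and 0.58 for 8439, below the threshold. The list leaves out genes with a chitinase code but no GH18 family, and of 4 such genes 9620 was higher (1.54) and 8195 (-0.85), 2847 (-0.49) and 4072 (-0.34) were not called. Of 11 aromatic and redox enzymes 2 were higher and 4 lower (median -0.11), and without wheat straw replicate 1 only 2 were lower. All 4 lower members carry the study's mark for aspen alone, which largely fixed their direction. Among 7 hemicellulose-active enzymes 2 were higher, the GH3 and the expansin-like gene, and none was lower (median 0.09). The other 5, had values between -0.10 and 0.37. Among them a GH2 beta-mannosidase family gene (1092) had 4468 ± 229 normalized counts on wheat straw, 4193 ± 360.5 on aspen and 344 ± 24.3 on maltose (SD, n = 3 each). Wheat straw and aspen differed by a log2 fold change of 0.09 with a 95% interval of -0.22 to 0.40.

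No member was called among 3 pectin-active enzymes (median -0.04), 4 alpha-mannosidases (-0.65), 10 transporters of the major facilitator superfamily (-0.05) and 6 enzymes of central carbon metabolism (0.05). The background was 7.73% of tested genes called, but of the 176 annotated genes 16 were higher and 27 lower, with 133 not called. These lists are small and none was tested, so these counts say nothing particular of the groups. The GH28 gene 8001, of the polygalacturonase family that cuts pectin, had 20893 ± 4259 normalized counts on wheat straw, 18587 ± 2814 on aspen and 587 ± 89.8 on maltose (SD, n = 3 each), and the wheat straw to aspen log2 fold change was 0.16 with a 95% interval of -0.38 to 0.70. Of 8 other transporters the 2 for phosphate were lower (median -0.48), of 5 cytochrome P450s 2 were lower (-0.29), of 4 peptidases 1 was lower (-0.32) and of 16 secreted proteins with no predicted function 1 was lower (-0.16). The starch and trehalose list of 3 genes had 1 higher and a median of 0.99, with an alpha-glucosidase family gene (9738) at 0.99. This count was 2 without wheat straw replicate 1 or aspen replicate 2 and with upper-quartile scaling, and 0 without aspen replicate 3. The study marked 25 genes as highly transcribed on aspen alone of the plant substrates. Of these, 14 were lower and none higher on wheat straw (median -1.06), a direction that their selection largely fixed. The 14 include the named genes 6432, 1643, 5902, 8358, 7817, 2642, 6077, 350, 6014 and 10135.

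The share of all reads held by the called genes was followed over the 17 libraries. The 313 genes higher on wheat straw took 6.21%, 7.23% and 8.43% of the reads on wheat straw and 1.48%, 1.84% and 1.51% on aspen, which the selection of the genes fixes in direction. On libraries not used for the selection they took 19.9% and 16.7% on Avicel, 3.34% to 3.66% on pine, 2.77% to 3.44% on maltose and 2.03% to 2.22% on xylan-galactomannan. A share of reads weighs abundant genes most. Gene by gene, the median log2 difference of Avicel minus wheat straw over the 313 genes was -0.68. The 395 genes lower on wheat straw took 3.51% to 3.73% of the reads there and at least 11.5% on aspen. Their share on the other substrates was highest on xylan-galactomannan (7.73% to 8.28%) and lowest on Avicel (4.75% and 4.47%).

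**Figure D4:**
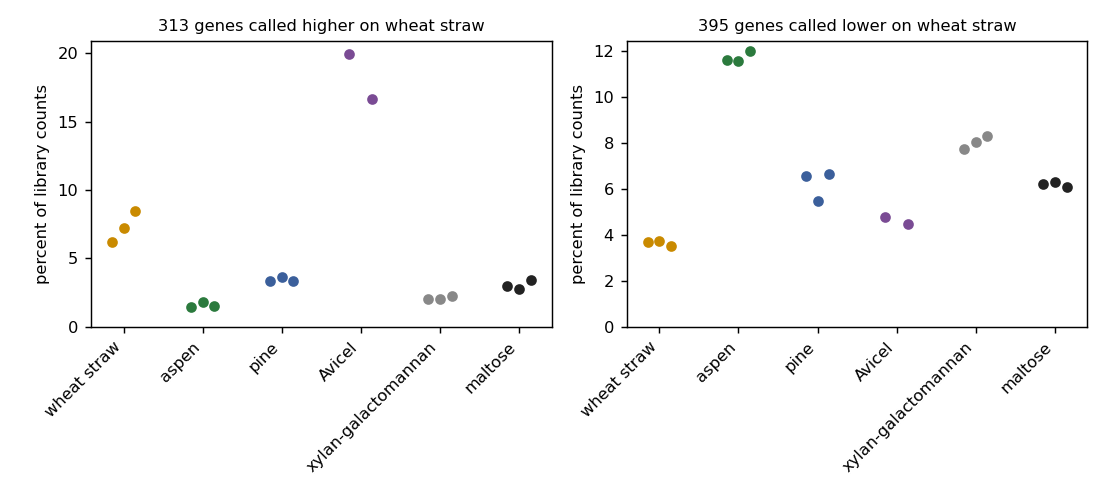
Percent of the reads of each library (points, y axis from 0) in the 313 genes called higher (left) and the 395 genes called lower (right) on wheat straw than on aspen, by substrate. The genes higher on wheat straw hold their largest share of reads in the Avicel libraries, 19.9% and 16.7%, a share that weighs abundant genes most.

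The comparison of Avicel with maltose uses neither wheat straw nor aspen libraries, and was read for the same genes. Of all tested genes 6.01% were called higher and 5.83% lower on Avicel. Of the 313 genes higher on wheat straw than on aspen, 83 (26.5%) were higher and 108 (34.5%) lower on Avicel than on maltose, so that both directions were above the background. The split varied with the size of the difference between wheat straw and aspen, in bands set after the values were seen. Of 258 genes with a 2- to 4-fold difference, 48 were higher and 99 lower on Avicel. Of 40 genes with a 4- to 8-fold difference 24 were higher and 7 lower, and above 8-fold 11 of 15 were higher and 2 lower. The 395 genes lower on wheat straw had 64 (16.2%) higher and 59 lower on Avicel than on maltose, and of the 104 above 4-fold 25 were higher and 22 lower. No test of the difference between bands was made, and the Avicel values rest on 2 libraries.

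**Figure D5:**
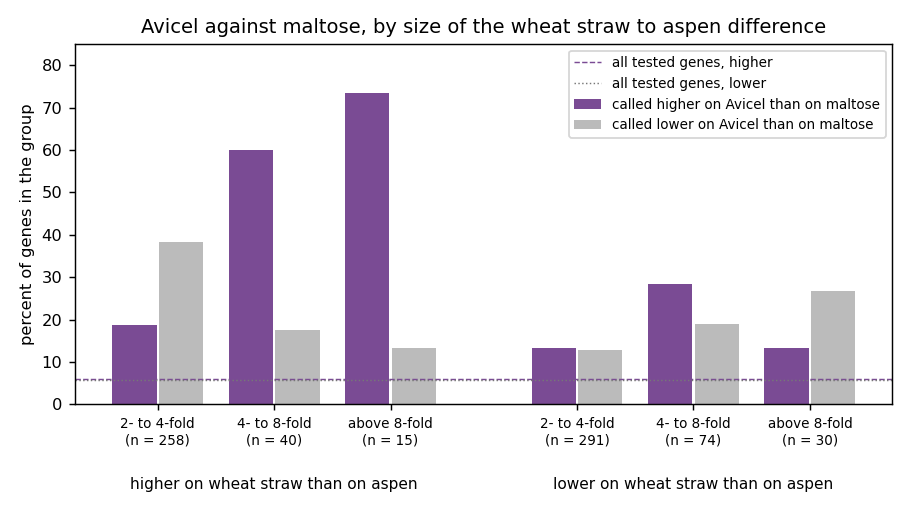
Percent of genes (y axis) called higher (purple) or lower (grey) on Avicel than on maltose, for genes called higher (left) or lower (right) on wheat straw than on aspen, in bands of fold difference with the number of genes below each. The dashed and dotted lines are the 6.01% and 5.83% of all tested genes, and the purple bars on the left rise from 48 of 258 genes to 24 of 40 and 11 of 15.

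Pine against maltose, where 13.7% of tested genes were higher and 9.34% lower, gave 97 higher and 56 lower of the 313 genes, and 118 higher and 87 lower of the 395. Above 4-fold, 39 of the 55 genes higher on wheat straw were also higher on pine than on maltose. Xylan-galactomannan against maltose (6.97% higher and 3.20% lower of tested genes) gave 50 higher and 64 lower of the 313 genes, and 99 higher and 17 lower of the 395. Pine against Avicel (11.9% and 7.66%) gave 101 higher and 66 lower of the 313 and 103 and 78 of the 395. Above 4-fold the genes higher on wheat straw had 16 higher and 30 lower on pine than on Avicel, and those lower on wheat straw had 26 higher and 33 lower.

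The mean level on each other substrate was also placed nearer to wheat straw or nearer to aspen, on the scale of log2(normalized count + 1). Of the 313 genes higher on wheat straw, 197 lay nearer to wheat straw on pine, 182 on maltose, 159 on Avicel and 145 on xylan-galactomannan. On pine this share was 62.9%, above the 57.5% of all tested genes. On maltose it was 58.1%, on Avicel 50.8% and on xylan-galactomannan 46.3%, each below the 63.0%, 54.96% and 50.5% of all tested genes. No test of these differences was made. Above 4-fold, 37 of the 55 genes were nearer to wheat straw on Avicel, but only 17 on pine, 14 on maltose and 11 on xylan-galactomannan. Of the 395 genes lower on wheat straw, 64.3% were nearer to wheat straw on pine and 60.5% on Avicel, above the shares of all tested genes, and 61.3% on maltose and 47.6% on xylan-galactomannan, below them. Above 4-fold 85 of 104 were nearer to wheat straw on pine.

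The substrate with the highest mean level was counted for each gene. The selection fixes part of this, since a gene higher on wheat straw than on aspen cannot be highest on aspen, and the reverse, so the counts for these 2 substrates are a description. Aspen was the highest of the 6 substrates for 225 of the 395 genes lower on wheat straw, followed by xylan-galactomannan (66) and maltose (41). Wheat straw was the highest for 76 of the 313 genes higher there, and maltose for 106 (33.9%, compared with 19.04% of all tested genes). Avicel was highest for 65 (20.8%, compared with 17.1% of all tested genes) and pine for 58 (18.5%, compared with 20.9%). Above 4-fold Avicel was highest for 26 of 55 genes, wheat straw for 17, and maltose and pine for 6 each, whereas aspen was highest for 62 of the 104 genes lower on wheat straw by more than 4-fold.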

How the data were processed

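RNA-seq of *P. cinnabarinus* mycelium was deposited as raw read counts per gene model and as normalized counts (a signal), both made by the authors. Poly-A RNA was sequenced as paired reads, and per the labels TopHat2, HTSeq and DESeq (version 1.5) were used. The deposited normalized values equal the counts divided by 1 size factor per library. That factor was applied to all genes for the levels given here, which are not adjusted for gene length.

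Counts were tested with edgeR 4.0.16 (R 4.3.3). filterByExpr kept 9162 genes and TMM factors scaled the libraries. A single quasi-likelihood fit took all 17 libraries with substrate as the factor and no covariate, leaving 11 residual degrees of freedom. Each standard error was derived from the fold change and its F statistic. The study used DESeq2 (1.42.0 here), kept as an alternative. Scripts were tested on simulated data. Intervals of fold changes use these standard errors.

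Named genes were the called genes with a predicted function or secretion, 8 per direction in full, and 2 unannotated genes per direction with the largest change, no overlap and a mean of at least 100. The bands of fold difference were set after the values were seen. Members, lists and thresholds were chosen with earlier results of these data known. Levels are means of normalized counts, with a pseudocount of 1 on the log2 scale.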

Additional observations from a re-analysis of the deposited data

How the results depend on the processing

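The count of called genes depended on the threshold. Bonferroni adjustment gave 412 genes (171 higher and 241 lower on wheat straw), a test against a log2 fold change of 1 gave 249 (90 and 159), and no threshold on fold change gave 2735 (1362 and 1373). RLE or upper-quartile scaling, no filter on low counts, DESeq2 and a fit of the 6 libraries alone stayed within 1.5 times of 313 and 395. Without each replicate in turn the counts were 661 to 774 in all, 279 to 360 higher and 382 to 422 lower. Correlations of the deviations of same-numbered wheat straw and aspen libraries were 0.17, 0.19 and -0.02, so the numbers were not taken to pair the samples, and a fit with the replicate block gave 716 genes (319 higher and 397 lower). Not every library correlated best with its own number. No named gene changed its direction, and 571 of 600 values of named genes kept their side of the threshold. The test against a log2 fold change of 1 dropped 13 named genes and Bonferroni adjustment 7. The share of the genes higher on wheat straw that were higher on Avicel than on maltose was 23.3% to 31.6% under all alternatives but the removal of the fold threshold (17.3%) and the test against a log2 fold change of 1 (50%). The 6 libraries held at least 10668073 reads each, and 9613 of the 10442 gene models entered the fit with no filter on low counts.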
